A study of Homo sapiens with 36 samples.

Results

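The CCR4-NOT complex is the main enzyme that shortens the poly(A) tails of cytoplasmic mRNAs, and the 10 genes described here encode its core subunits: CNOT1, CNOT2, CNOT3, CNOT6, CNOT6L, CNOT7, CNOT8, CNOT9, CNOT10 and CNOT11. They were picked by symbol out of 60675 genes in the count table. All 10 had enough counts to be among the 31849 genes tested. The values concern the mRNAs that encode the subunits, recovered with antibodies to YTHDF proteins, and not the proteins of the complex.

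YTHDF1, YTHDF2 and YTHDF3 are cytoplasmic proteins that bind mRNA carrying N6-methyladenosine. YTHDF2 is known to bring CCR4-NOT to the mRNAs it binds, through a contact with the scaffold subunit CNOT1, and deadenylation then starts their decay. Within the complex, CNOT1 holds the other subunits: CNOT10 and CNOT11 bind its N-terminal region, CNOT9 and the catalytic subunits bind its centre, and CNOT2 and CNOT3 bind its C-terminal region. Each complex has nuclease subunits of separate families, 1 of CCR4 type (CNOT6 or CNOT6L) and 1 of CAF1 type (CNOT7 or CNOT8).

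The cells were HEK293T, a human embryonic kidney line, in 3 derivatives that each expressed a fusion of a YTHDF protein to the RNA-editing enzyme ADAR. The 3 YTHDF1-ADAR, YTHDF2-ADAR and YTHDF3-ADAR lines were all treated with doxycycline at 1 ug/mL for 24 h to induce the fusion, so every group described here carries a fusion and the drug. From each line, RNA was recovered by RNA immunoprecipitation (RIP) with antibodies to endogenous YTHDF1, YTHDF2 or YTHDF3, and a portion of the lysate served as input, which gave 12 groups of 3 libraries. The labels do not say whether a line is 1 clone, which promoter drives the fusion, whether an antibody also recovered the fusion, or whether replicates came from separate cultures; what the p-values weigh is the spread among these libraries, which may be technical. The design asks which mRNAs each YTHDF protein holds, and whether mRNAs edited by the fusion of one protein are also held by another.

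Libraries held 12.5 to 37.5 M counts. The 6 libraries of YTHDF1 RIP made from YTHDF2-ADAR or YTHDF3-ADAR cells were unlike the other 30: they held 12.5 to 16.3 M counts, against 15.9 to 37.5 M in the others, 54.1 to 74.2% of their counts came from protein-coding genes, against 71.5 to 92.4%, and 0.696 to 4.35% from snoRNAs, against 0.0360 to 0.564%. Results for YTHDF1 RIP in these lines are therefore kept apart from those in YTHDF1-ADAR cells below. The other 30 libraries were not alike: the protein-coding share was 71.5 to 79.1% in the inputs and 82.8 to 92.4% in the RIPs. In YTHDF1-ADAR cells, input replicate 1 held 20.7 M counts, against 30.3 and 29.9 M in the other input replicates. YTHDF2 RIP replicate 3 there held 15.9 M, against 27.2 and 26.6 M, with 0.564% from snoRNAs, against 0.155 and 0.115%. The part of all these library differences in the results was not tested. The HEK293T markers PAX2, NEFM, INA, VIM and LIN28B were detected in every input, and among genes of other cell types HBB, PTPRC, COL1A2 and KRT5 were at 0 in every input while ALB reached at most 0.113 CPM (counts per-million).

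In the inputs, mRNA of the scaffold CNOT1 was the most abundant of the 10 per unit of length, at 50.9 ± 7.75 RPKM (counts per kilobase, per-million counts; SD, n = 9 inputs), with a range of 35.7 to 61.0. CNOT11 followed at 21.2 RPKM, CNOT9 at 19.9 and CNOT6 at 18.5, then CNOT10 at 11.4, CNOT8 at 11.3, CNOT3 at 10.5, CNOT6L at 7.76, CNOT7 at 6.94 and CNOT2 at 3.27. Only CNOT1 and CNOT11, at the top, and CNOT7 and CNOT2, at the bottom, were neighbours in this order whose ranges did not overlap. CNOT6 was nonetheless above CNOT10, and CNOT3 above CNOT6L, in all 9 inputs. Length here is the summed exon length of the annotation, which counts exons that HEK293T transcripts may not use.

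**Figure D1:**
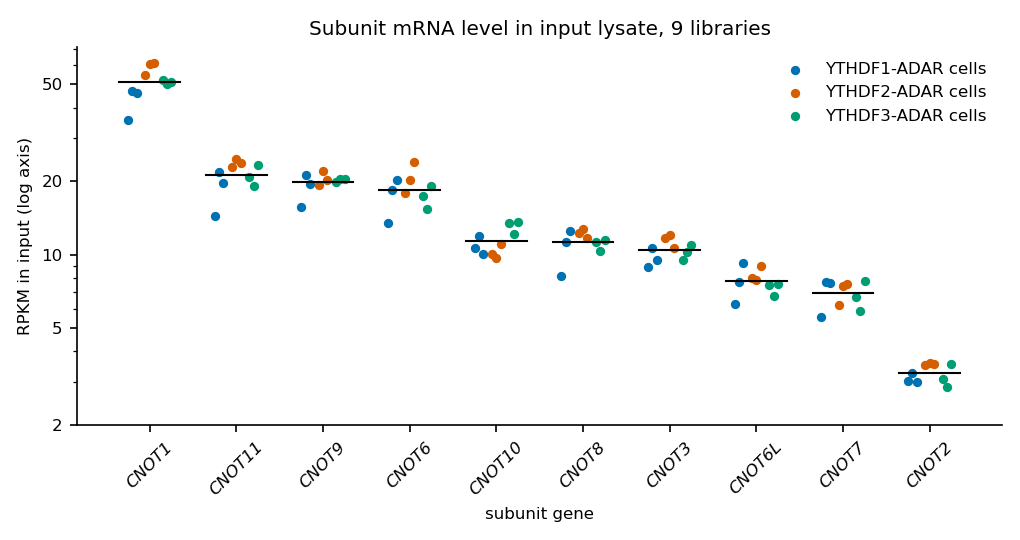
Input level of the 10 subunit mRNAs in RPKM on a log axis, 1 point per input library (n = 9) coloured by line. CNOT1 lay between 35.7 and 61.0 in every input, above all points of the other genes, and CNOT2 averaged 3.27.

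Between lines, the subunit mRNAs differed little before any RIP. With edgeR's quasi-likelihood test and an adjusted p limit of 0.05, CNOT1 was the single member to pass in any comparison of inputs: it averaged 465.3 CPM in YTHDF1-ADAR cells and 636.6 CPM in YTHDF2-ADAR cells, a log2 fold change of -0.45 ± 0.16 (SE, adjusted p = 0.0407), where 4.3% of all genes were lower and 13.3% higher. Its call was lost in 3 of 6 fits with a library left out (without YTHDF1-ADAR input replicate 1 and without YTHDF2-ADAR input replicate 2 or 3), with values from -0.68 to -0.34 and adjusted p up to 0.32. No member passed for YTHDF1-ADAR against YTHDF3-ADAR inputs, where 11.3% of genes were higher and 5.1% lower, or for YTHDF2-ADAR against YTHDF3-ADAR inputs, where 1.27% were higher and 2.15% lower; at an unadjusted p under 0.05 these held 0 and 1 members, and DESeq2 called 0 in both.

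Against input, the subunit mRNAs did not move as a block in YTHDF2 or YTHDF3 RIP. In YTHDF1 RIP, every member that passed by edgeR was lower. In YTHDF2 RIP, CNOT1 and CNOT6 were higher and CNOT7 and CNOT10 lower in all 3 lines. In YTHDF3 RIP, CNOT1 was higher and CNOT7 and CNOT11 lower in all 3 lines. In YTHDF1 RIP CNOT6L, CNOT7, CNOT8 and CNOT11 were lower in all 3 lines. No member was higher there by edgeR (0 also at an unadjusted p under 0.05), but DESeq2 called 1, 1 and 0 higher by line: CNOT9 in YTHDF1-ADAR cells at 0.30 and CNOT2 in YTHDF2-ADAR cells at 0.46. With TMM over abundant genes CNOT9 was called in the first line, and CNOT2 and CNOT10 in both others. The calls of CNOT11 in YTHDF1-ADAR cells rested on single libraries and on the scaling, and some of CNOT1 and CNOT6 on single libraries, as given with each gene.

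In counts, YTHDF2 RIP had 2 members higher and 5 lower in YTHDF1-ADAR cells, where 8.66% of all genes tested were higher and 15.5% lower. It had 2 higher and 2 lower in YTHDF2-ADAR cells (10.2% of genes higher, 10.1% lower) and the same numbers in YTHDF3-ADAR cells (8.98% higher, 9.93% lower). YTHDF3 RIP had 2 members higher and 2 lower in YTHDF1-ADAR cells (11.5% of genes higher, 20.1% lower), 1 higher and 2 lower in YTHDF2-ADAR cells (15.2% and 16.9%), and 2 higher and 2 lower in YTHDF3-ADAR cells (13.5% and 16.1%). YTHDF1 RIP had 6 members lower in YTHDF1-ADAR cells, where 28.8% of genes were lower and 20.6% higher. It had 8 lower in YTHDF2-ADAR cells (33.4% of genes lower, 41.8% higher) and 7 lower in YTHDF3-ADAR cells (32.4% lower, 40.8% higher).

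The scale of a RIP against an input depends on how libraries are normalised, and the median log2 fold change over all genes showed this. Under the TMM scaling used here, this median in YTHDF1 RIP was -0.28, 0.20 and 0.21 in the YTHDF1-, YTHDF2- and YTHDF3-ADAR lines. TMM over abundant genes alone put it at -0.15, 0.80 and 0.83 in the same lines. In YTHDF2 RIP the median was -0.11, 0.02 and 0.00, and in YTHDF3 RIP -0.23, 0.09 and 0.01; scaling by total counts moved these to 0.09, 0.22 and 0.19 and to 0.04, 0.37 and 0.24. Where a member is described relative to the median of all genes, its value varied little between the 4 scalings, which shift all genes nearly alike. CPM are shares of a library, and the amount of RNA a RIP recovered was not analysed here.

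**Figure D2:**
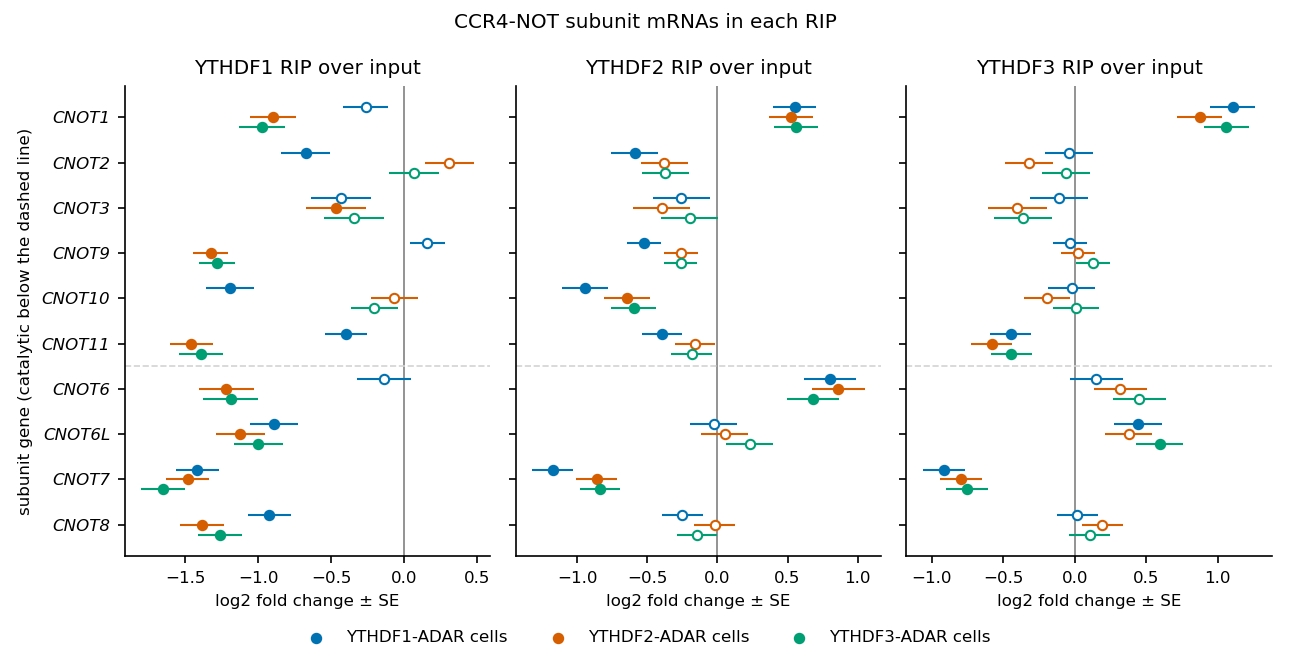
Log2 fold change of each subunit mRNA in RIP over input (x axis) for YTHDF1, YTHDF2 and YTHDF3 RIP, with 1 point per line and bars of ± SE; filled points passed the adjusted p limit of 0.05 and open points did not, and catalytic subunits are below the dashed line. CNOT7 lay left of 0 in all 9 comparisons, between -1.65 and -0.75, and CNOT1 lay right of 0 in all YTHDF2 and YTHDF3 RIPs.

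CNOT1 (ENSG00000125107), the scaffold, lies on the minus strand of chromosome 16 from 58519951 to 58629885 (GRCh38). In YTHDF1-ADAR cells it had 748.9, 724.5 and 570.1 CPM in YTHDF2 RIP and 1025.4, 954.4 and 1021.2 CPM in YTHDF3 RIP, against 387.6, 507.8 and 500.4 CPM in input. In YTHDF2-ADAR cells it had 930.1, 803.3 and 1017.5 CPM in YTHDF2 RIP and 1298.3, 824.1 and 1380.1 CPM in YTHDF3 RIP, against 590.2, 657.5 and 662.2 CPM in input. In YTHDF3-ADAR cells it had 791.9, 787.3 and 881.9 CPM in YTHDF2 RIP and 1133.1, 1127.6 and 1210.5 CPM in YTHDF3 RIP, against 562.3, 546.5 and 556.8 CPM in input. Every YTHDF2 and YTHDF3 RIP library was above every input of its line.

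The log2 fold change of CNOT1 in YTHDF3 RIP was 1.10, 0.87 and 1.06 in the YTHDF1-, YTHDF2- and YTHDF3-ADAR lines (each ± 0.16 SE; adjusted p = 7.53e-07, 3.26e-05 and 1.88e-06). These 3 calls held when any 1 library of either group was left out. In YTHDF2 RIP the values were smaller, 0.55, 0.53 and 0.56 (each ± 0.16 SE; adjusted p = 0.00778, 0.0133 and 0.00887). In YTHDF2-ADAR cells that call was lost without YTHDF2 RIP replicate 3, without input replicate 1 and without input replicate 2 (0.42 to 0.61 over the libraries left out, adjusted p up to 0.164), and also when the 6 libraries that stand apart were left out of the fit. In the other lines it was lost without input replicate 1, with values of 0.43 to 0.71 in YTHDF1-ADAR cells (adjusted p up to 0.0576) and 0.51 to 0.59 in YTHDF3-ADAR cells (adjusted p up to 0.0821).

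In YTHDF1 RIP, CNOT1 differed between the lines. It had 351.5, 407.1 and 402.6 CPM in YTHDF1-ADAR cells, which overlapped the inputs there, and the log2 fold change was -0.27 ± 0.16 (adjusted p = 0.163). It had 329.0, 337.0 and 358.5 CPM in YTHDF2-ADAR cells and 291.2, 301.1 and 256.0 CPM in YTHDF3-ADAR cells, all below the inputs of those lines. There the log2 fold changes were -0.90 ± 0.16 and -0.97 ± 0.16 (adjusted p = 6.07e-06 and 1.91e-06). SETD6, on the opposite strand, shares 12.5% of the exon bases of CNOT1 and its mean count was 17.97% of that of CNOT1; counting ignored strand, so some reads of one gene may be counted for the other.

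**Figure D3:**
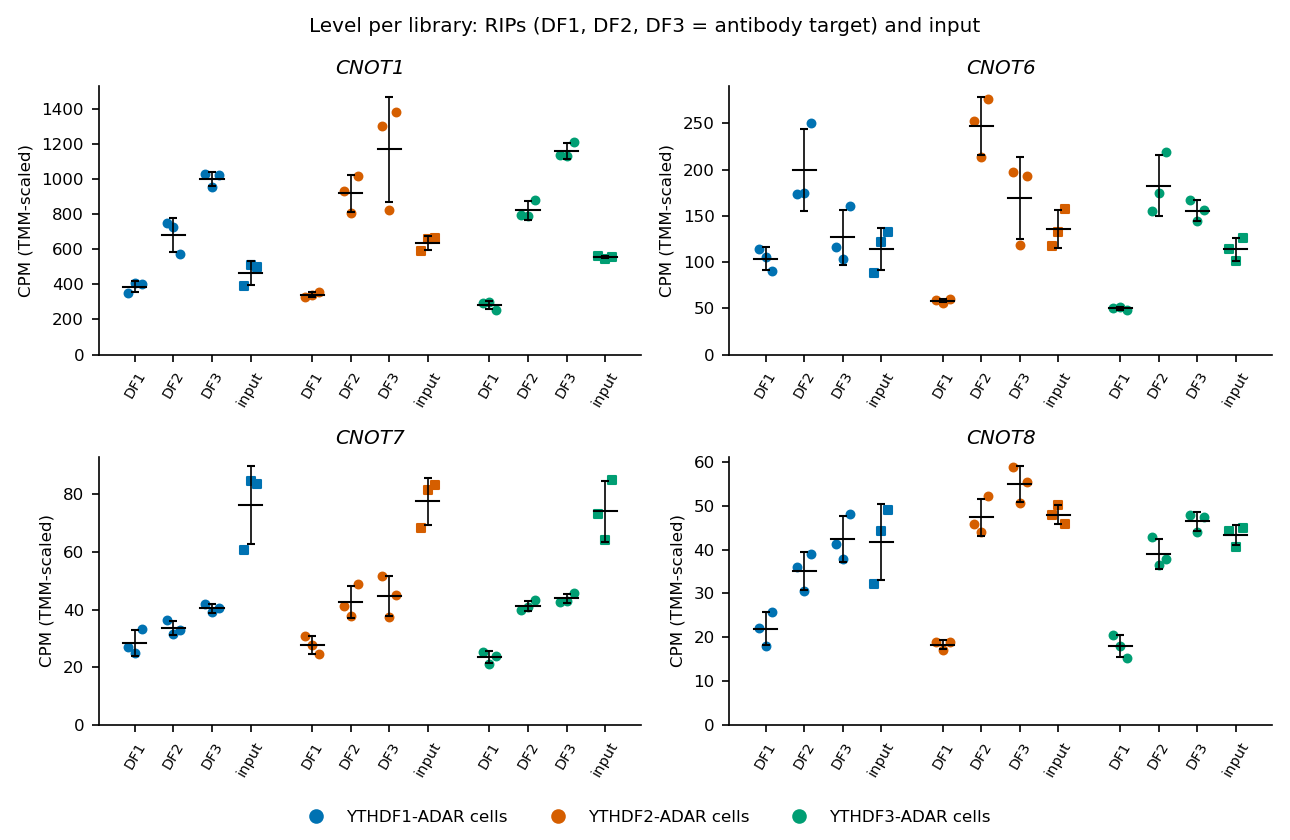
CPM of CNOT1, CNOT6, CNOT7 and CNOT8 in each library, by line, with YTHDF1, YTHDF2 and YTHDF3 RIP (circles) left of input (squares); bars are the mean ± SD of 3 libraries. In every line, CNOT1 and CNOT6 in YTHDF2 RIP lay above the inputs of that same line, and CNOT7 in every RIP lay below them.

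CNOT2 and CNOT3 form the module at the C-terminal end of CNOT1, which binds partners that recruit the complex to RNA. CNOT2 (ENSG00000111596, chromosome 12, 70243002 to 70354993, plus strand) was lower in YTHDF2 RIP of YTHDF1-ADAR cells, with 27.1, 32.1 and 27.1 CPM against 42.3, 45.8 and 41.8 CPM in input. Its log2 fold change there was -0.59 ± 0.17 (adjusted p = 0.00816), and in YTHDF2-ADAR and YTHDF3-ADAR cells it was -0.38 and -0.37 (adjusted p = 0.111 and 0.126). The call was lost without input replicate 2, with values of -0.62 to -0.43 and adjusted p up to 0.113, and with total counts (-0.39, adjusted p = 0.0834). DESeq2 called CNOT2 in YTHDF2-ADAR cells too, at -0.43 (adjusted p = 0.0494). By edgeR it was also lower in YTHDF1 RIP of YTHDF1-ADAR cells, at -0.68 ± 0.17 (adjusted p = 0.000957). CNOT2 did not pass in YTHDF3 RIP, at -0.04, -0.32 and -0.06.

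CNOT3 (ENSG00000088038, chromosome 19, 54137749 to 54155681, plus strand) had negative log2 fold changes in all 9 comparisons, between -0.47 and -0.11, and passed in 1. That was YTHDF1 RIP of YTHDF2-ADAR cells, with 50.8, 59.4 and 59.3 CPM against 80.0, 81.9 and 72.5 CPM in input (-0.47 ± 0.20, adjusted p = 0.0384). DESeq2 did not call it (adjusted p = 0.147). The sign of this call turned under other scalings, to 0.06 with total counts and 0.13 with TMM over abundant genes, and the call was lost without YTHDF1 RIP replicate 1 or 3 (adjusted p up to 0.126). Relative to the median of all genes it was -0.67 to -0.66 under all 4 scalings. These scalings shift all genes nearly alike, so the narrow range does not test the call. Replicates of CNOT3 were wide apart in YTHDF2 RIP of YTHDF1-ADAR cells, at 52.1, 83.2 and 30.6 CPM. LENG1 lies antisense over 7.64% of its exon bases.

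CNOT9 (ENSG00000144580, chromosome 2, 218568580 to 218597080, plus strand) is the armadillo-repeat subunit that binds recruiting proteins such as those of the TNRC6 family. Its YTHDF1 RIP values split by line. In YTHDF1-ADAR cells it had 114.2, 108.5 and 110.5 CPM, against 83.2, 112.7 and 103.2 CPM in input (0.16 ± 0.12, adjusted p = 0.296). In YTHDF2-ADAR cells it had 42.3, 43.2 and 44.5 CPM, against 102.2, 117.0 and 107.3 CPM in input (-1.33 ± 0.12, adjusted p = 2.84e-11), and in YTHDF3-ADAR cells 45.6, 43.1 and 42.7 CPM, against 104.8, 107.9 and 107.5 CPM (-1.29 ± 0.12, adjusted p = 7.12e-11). The groups overlapped in the first of these lines and were far apart in the others. In YTHDF2 RIP it passed in YTHDF1-ADAR cells, at -0.52 ± 0.12 (adjusted p = 0.00102), and by edgeR did not in the other lines, at -0.26 in both. DESeq2 called it lower in those lines as well, at -0.31 and -0.28 (adjusted p = 0.025 and 0.0461), as did TMM over abundant genes in YTHDF2-ADAR cells (-0.32, adjusted p = 0.0314). The test of a difference between lines found none for YTHDF2 RIP. The call in YTHDF1-ADAR cells was lost without input replicate 2, with values of -0.64 to -0.33 and adjusted p up to 0.128. In YTHDF3 RIP it lay at -0.03, 0.02 and 0.13 and did not pass, but with total counts it was called higher in YTHDF2-ADAR and YTHDF3-ADAR cells, at 0.30 and 0.37.

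CNOT10 and CNOT11 bind each other and the N-terminal region of CNOT1. CNOT10 (ENSG00000182973, chromosome 3, 32685145 to 32773875, plus strand) was lower in YTHDF2 RIP of every line. It had 28.4, 31.2 and 22.5 CPM against 51.7, 57.6 and 48.7 CPM in input of YTHDF1-ADAR cells, and 32.3, 29.0 and 34.0 CPM against 48.5, 47.1 and 53.6 CPM in input of YTHDF2-ADAR cells. In YTHDF3-ADAR cells it had 46.5, 39.7 and 39.3 CPM in YTHDF2 RIP, against 65.3, 58.7 and 66.2 CPM in input. No RIP library reached the lowest input of its line.

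The log2 fold changes of CNOT10 in YTHDF2 RIP were -0.94, -0.65 and -0.60 (each ± 0.16 SE; adjusted p = 3.18e-05, 0.00336 and 0.00717), and the calls held under every library left out and every other setting tried. In YTHDF3 RIP the same mRNA lay at -0.02, -0.19 and 0.01, with 55.3, 58.3 and 41.9 CPM in YTHDF1-ADAR cells. In YTHDF1 RIP it was lower in YTHDF1-ADAR cells, with 18.8, 19.2 and 30.9 CPM (-1.20 ± 0.16, adjusted p = 1.27e-07), and at -0.07 and -0.21 in the other lines. CNOT10-AS1 and SUGT1P2 share 0.929% and 1.38% of its exon bases.

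CNOT11 (ENSG00000158435, chromosome 2, 101252886 to 101270316, plus strand) showed another pattern. In YTHDF1 RIP of YTHDF2-ADAR cells it had 21.5, 23.7 and 24.9 CPM, against 61.8, 66.9 and 64.4 CPM in input (-1.46 ± 0.15, adjusted p = 2.29e-10), and it was as low in YTHDF3-ADAR cells (-1.39 ± 0.15, adjusted p = 7.16e-10). In YTHDF3 RIP it was lower by a smaller amount in each line, at -0.45, -0.58 and -0.44 (adjusted p = 0.015, 0.00174 and 0.0173). In YTHDF1-ADAR cells the groups of CNOT11 overlapped for all 3 RIPs, with inputs at 38.9, 58.9 and 53.2 CPM, and each of these calls was lost in 3 or 4 of the 6 fits with a library left out, each time including those without input replicate 2 or 3. Over these fits the values ran from -0.55 to -0.19 in YTHDF1 RIP, -0.56 to -0.17 in YTHDF2 RIP and -0.60 to -0.18 in YTHDF3 RIP. The YTHDF1 RIP call in that line was lost with DESeq2, TMM over abundant genes and total counts (-0.26 to -0.22, adjusted p = 0.128, 0.0794 and 0.144), and so was the YTHDF2 RIP call (-0.31 to -0.18, adjusted p = 0.112, 0.0556 and 0.331). Scaling by total counts ended the YTHDF3 RIP call in all 3 lines, at -0.15, -0.30 and -0.20 (adjusted p = 0.414, 0.0534 and 0.223). In YTHDF3-ADAR cells the YTHDF3 RIP call was also lost without YTHDF3 RIP replicate 2 or input replicate 3 (adjusted p up to 0.0976). In YTHDF2 RIP of YTHDF2-ADAR and YTHDF3-ADAR cells it did not pass, at -0.16 and -0.18.

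Among the nucleases, the CCR4-type paralogs had unlike YTHDF2 RIP values. CNOT6 (ENSG00000113300, chromosome 5, 180494379 to 180578358, plus strand) had 174.0, 174.3 and 250.6 CPM in YTHDF2 RIP of YTHDF1-ADAR cells, against 88.4, 121.5 and 132.6 CPM in input. In YTHDF2-ADAR cells it had 252.3, 213.3 and 276.0 CPM, against 117.1, 132.5 and 158.0 CPM in input, and in YTHDF3-ADAR cells 155.2, 174.4 and 218.8 CPM, against 114.3, 101.4 and 125.9 CPM in input. The RIP libraries lay above all inputs of their line.

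The log2 fold changes of CNOT6 in YTHDF2 RIP were 0.81, 0.86 and 0.68 (each ± 0.19 SE; adjusted p = 0.0011, 0.000729 and 0.00748). The call in YTHDF3-ADAR cells was lost without YTHDF2 RIP replicate 3 and without input replicate 1, with values of 0.53 to 0.79 and adjusted p up to 0.0772. In YTHDF3 RIP, CNOT6 lay at 0.15, 0.32 and 0.45 and did not pass, with an adjusted p of 0.0629 in YTHDF3-ADAR cells. It was called higher there by DESeq2 (0.49, adjusted p = 0.046) and with total counts (0.69, adjusted p = 0.00637), and in YTHDF2-ADAR cells with total counts (0.59, adjusted p = 0.0186). In YTHDF1 RIP it was at -0.14 (adjusted p = 0.559) in YTHDF1-ADAR cells, with 114.7, 105.8 and 90.4 CPM, and at -1.22 and -1.19 (each ± 0.19 SE; adjusted p = 7.74e-07 and 1.35e-06) in YTHDF2-ADAR and YTHDF3-ADAR cells, with 47.7 to 59.6 CPM in those 6 libraries.

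CNOT6L (ENSG00000138767, chromosome 4, 77713387 to 77819615, minus strand) lay near 0 in YTHDF2 RIP, at -0.03, 0.05 and 0.23 (adjusted p = 0.942, 0.881 and 0.384). Its YTHDF2 RIP libraries had 64.8 to 94.5 CPM over the 3 lines, against 58.9 to 86.7 CPM in inputs. In YTHDF3 RIP it was higher in YTHDF3-ADAR cells, with 96.3, 102.3 and 108.9 CPM against 70.0, 63.1 and 70.6 CPM in input (0.59 ± 0.17, adjusted p = 0.00517). In YTHDF1-ADAR cells it was at 0.44 ± 0.17 (adjusted p = 0.0382), a call that was lost without YTHDF3 RIP replicate 3 or input replicate 1, with values of 0.17 to 0.59 as single libraries were left out. In YTHDF2-ADAR cells it was at 0.38 and did not pass (adjusted p = 0.0802), with 120.8, 75.6 and 105.2 CPM against 74.8, 73.6 and 83.9 CPM in input; total counts called it, at 0.65 (adjusted p = 0.00375). In YTHDF1 RIP it was lower in all lines, from -1.12 to -0.89 (each ± 0.17 SE; adjusted p = 2.46e-05, 4.79e-07 and 3.74e-06 in the order of the lines). With TMM over abundant genes its YTHDF3-ADAR call was lost, at -0.38 (adjusted p = 0.0591).

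The ratio of CNOT6 to CNOT6L counts within a library, which no scaling affects, averaged 2.72 ± 0.455 in the 9 YTHDF2 RIP libraries and 1.66 ± 0.132 in the 9 inputs (SD), with ranges of 1.99 to 3.28 and 1.5 to 1.88 that did not overlap. In YTHDF1 RIP of YTHDF1-ADAR cells it was as high, at 2.65 ± 0.301, against 1.57 ± 0.0920 in input (SD, n = 3 each). In YTHDF1 RIP of YTHDF2-ADAR cells it was 1.65 ± 0.127, against 1.75 ± 0.164 in input, and these overlapped, and in YTHDF3-ADAR cells it was 1.47 ± 0.0460, below all inputs at 1.67 ± 0.0953. In YTHDF3 RIP it was below all inputs in YTHDF1-ADAR cells, at 1.30 ± 0.0735, and overlapped them in the other lines, at 1.68 and 1.53. No test was made of these ratios, which were computed after the members' values were seen.

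The CAF1-type paralogs also parted. CNOT7 (ENSG00000198791, chromosome 8, 17224966 to 17246878, minus strand) was the single member called lower in all 9 comparisons with input. CNOT3 and CNOT11 also had negative values in all 9, of which 1 and 7 were called. In YTHDF1-ADAR cells it had 27.2, 24.9 and 33.4 CPM in YTHDF1 RIP, 36.5, 31.7 and 33.0 CPM in YTHDF2 RIP and 42.0, 39.0 and 40.4 CPM in YTHDF3 RIP, against 60.8, 84.5 and 83.5 CPM in input. In YTHDF2-ADAR cells it had 30.9, 27.6 and 24.6 CPM, 41.4, 37.7 and 48.7 CPM, and 51.6, 37.4 and 45.2 CPM in the same RIPs, against 68.2, 81.3 and 83.0 CPM in input. In YTHDF3-ADAR cells it had 25.4, 21.3 and 24.0 CPM, 39.9, 40.9 and 43.3 CPM, and 42.8, 43.2 and 45.8 CPM, against 73.3, 64.0 and 84.9 CPM in input. No RIP library of any antibody reached the lowest input of its line.

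The log2 fold changes of CNOT7 were -1.18, -0.86 and -0.84 in YTHDF2 RIP (each ± 0.15 SE; adjusted p = 1.37e-07, 3.61e-05 and 6.07e-05) and -0.91, -0.79 and -0.75 in YTHDF3 RIP (adjusted p = 4.5e-06, 4.21e-05 and 8.9e-05). In YTHDF1 RIP they were -1.42, -1.49 and -1.65 (each ± 0.15 SE; adjusted p = 3.89e-10, 1.65e-10 and 2.49e-11). All 9 calls held with each library left out and under each other setting tried. The pseudogenes CNOT7P1 and CNOT7P2 held at most 12 and 3 counts in any library, and CNOT6LP1 held 4 to 49. Relative to the median of all genes, the YTHDF2 RIP values under the 4 scalings were -1.08 to -1.04, -0.89 to -0.88 and -0.85 to -0.83 in the order of the lines. As the scalings shift all genes nearly alike, these narrow ranges do not test the calls.

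CNOT8 (ENSG00000155508, chromosome 5, 154857553 to 154876792, plus strand) lay near 0 in YTHDF2 RIP, at -0.25, -0.02 and -0.15, and in YTHDF3 RIP, at 0.02, 0.19 and 0.10, and passed in neither; total counts called it higher in YTHDF3 RIP of YTHDF2-ADAR cells, at 0.47 (adjusted p = 0.0123). In YTHDF2-ADAR cells it had 45.8, 44.0 and 52.2 CPM in YTHDF2 RIP, against 48.0, 50.1 and 45.9 CPM in input, and these overlapped. In YTHDF1 RIP it was lower in every line, at -0.92, -1.39 and -1.26 (each ± 0.15 SE; adjusted p = 1.63e-06, 7.44e-10 and 6.04e-09). FAXDC2, antisense to it, shares 4.15% of its exon bases. The within-library ratio of CNOT7 to CNOT8 counts averaged 0.977 ± 0.110 in YTHDF2 RIP and 0.907 ± 0.0988 in YTHDF3 RIP, against 1.72 ± 0.168 in input (SD, n = 9 each). The highest YTHDF2 RIP library, at 1.15, and the highest YTHDF3 RIP library, at 1.03, were below the lowest input, at 1.42. In YTHDF1 RIP of YTHDF1-ADAR cells the ratio was 1.30 ± 0.0760, against 1.83 ± 0.114 in input (SD, n = 3 each), with no overlap. In the libraries that stand apart it was 1.51 ± 0.190, against 1.62 ± 0.195 in input of YTHDF2-ADAR cells, which overlapped, and 1.32 ± 0.204, against 1.71 ± 0.163 in input of YTHDF3-ADAR cells, where the highest RIP library, at 1.56, was just below the lowest input, at 1.58.

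Set by role, the 4 catalytic subunits and the 6 others did not separate by direction. In YTHDF2 RIP the median log2 fold change of the catalytic subunits was -0.14, 0.02 and 0.04 in the YTHDF1-, YTHDF2- and YTHDF3-ADAR lines, against -0.46, -0.32 and -0.23 for the others. Each class held 1 higher member in every line, CNOT6 and CNOT1. In YTHDF3 RIP the catalytic median was 0.08, 0.26 and 0.28, against -0.04, -0.26 and -0.03. In YTHDF1 RIP it was -0.91, -1.30 and -1.23, against -0.42, -0.68 and -0.66, and all 4 catalytic subunits were lower in YTHDF2-ADAR and YTHDF3-ADAR cells. The class sizes are small and no test was made of them.

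CNOT1 counts over the sum of the 4 catalytic subunits, within a library, averaged 3.26 ± 0.330 in YTHDF3 RIP, against 1.76 ± 0.199 in input (SD, n = 9 each). The lowest YTHDF3 RIP library, at 2.68, lay above the highest input, at 2.03. Within lines, YTHDF2 RIP lay above all inputs in YTHDF2-ADAR cells, at 2.20 ± 0.0359 against 1.88 ± 0.0858, and in YTHDF3-ADAR cells, at 2.399 ± 0.104 against 1.87 ± 0.163 (SD, n = 3 each). In YTHDF1-ADAR cells it overlapped them, at 2.06 ± 0.547 against 1.54 ± 0.101. YTHDF1 RIP lay above all inputs in YTHDF1-ADAR cells, at 2.01 ± 0.268, and likewise in the libraries that stand apart, at 2.45 ± 0.191 for the YTHDF2-ADAR line and 2.25 ± 0.127 for the YTHDF3-ADAR line. No test was made of this ratio.

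YTHDF2 RIP was also set directly against the other RIPs, since YTHDF2 is the reader known to contact the complex. Against YTHDF3 RIP, 1 member was higher and 5 lower in YTHDF1-ADAR cells, where 10.7% of genes were higher and 8.51% lower. In YTHDF2-ADAR cells 2 were higher and 1 lower (12.1% and 8.33% of genes), and in YTHDF3-ADAR cells none was higher (0 also at an unadjusted p under 0.05 and by DESeq2) and 3 were lower (9.01% and 5.74%). CNOT10 was lower in YTHDF2 RIP than in YTHDF3 RIP in each line, at -0.92 ± 0.16, -0.45 ± 0.16 and -0.61 ± 0.16 (adjusted p = 6.58e-05, 0.0427 and 0.00857). CNOT1 was lower in YTHDF1-ADAR cells, at -0.55 ± 0.16 (adjusted p = 0.00951), and in YTHDF3-ADAR cells, at -0.50 ± 0.16 (adjusted p = 0.0267), and was at -0.35 in YTHDF2-ADAR cells (adjusted p = 0.116). With a library left out, the calls of CNOT10 held in 6, 1 and 5 of 6 fits in the YTHDF1-, YTHDF2- and YTHDF3-ADAR lines, with the YTHDF2-ADAR value at -0.59 to -0.34 (adjusted p up to 0.213) and the YTHDF3-ADAR call lost without YTHDF3 RIP replicate 3. The CNOT1 call held in 5 of 6 fits in YTHDF1-ADAR cells, lost without YTHDF2 RIP replicate 3 (adjusted p up to 0.0617), and in 2 of 6 in YTHDF3-ADAR cells.

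CNOT6 ran the other way, higher in YTHDF2 RIP than in YTHDF3 RIP at 0.66 ± 0.19 in YTHDF1-ADAR and 0.54 ± 0.19 in YTHDF2-ADAR cells (adjusted p = 0.00969 and 0.0322), and at 0.23 in YTHDF3-ADAR cells (adjusted p = 0.478). CNOT9 was lower in YTHDF1-ADAR and YTHDF3-ADAR cells, at -0.49 and -0.39 (each ± 0.12 SE; adjusted p = 0.0027 and 0.0218). CNOT11 was higher in YTHDF2-ADAR cells, at 0.42 ± 0.14 (adjusted p = 0.0345). In YTHDF1-ADAR cells CNOT2 and CNOT6L were the other lower members, at -0.55 and -0.47 (adjusted p = 0.0176 and 0.0416). CNOT7 and CNOT8 did not differ past the threshold in any line, with values between -0.27 and -0.07 for both genes. In YTHDF2-ADAR cells YTHDF3 RIP replicate 2 had less CNOT1, CNOT2 and CNOT6 mRNA than the other replicates, 824.1, 24.0 and 118.4 CPM. The call of CNOT6 there held in 3 of 6 fits with a library left out (0.34 to 0.67, adjusted p up to 0.227) and that of CNOT11 in 0 of 6 (0.38 to 0.44, adjusted p up to 0.107). In YTHDF1-ADAR cells the call of CNOT6 held in 4 of 6, lost without YTHDF2 RIP replicate 3 or YTHDF3 RIP replicate 2, and those of CNOT2 and CNOT6L in 3 of 6. Leaving the 6 libraries that stand apart out of the fit also ended the CNOT6 calls in both lines and the CNOT10 and CNOT11 calls in YTHDF2-ADAR cells.

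**Figure D4:**
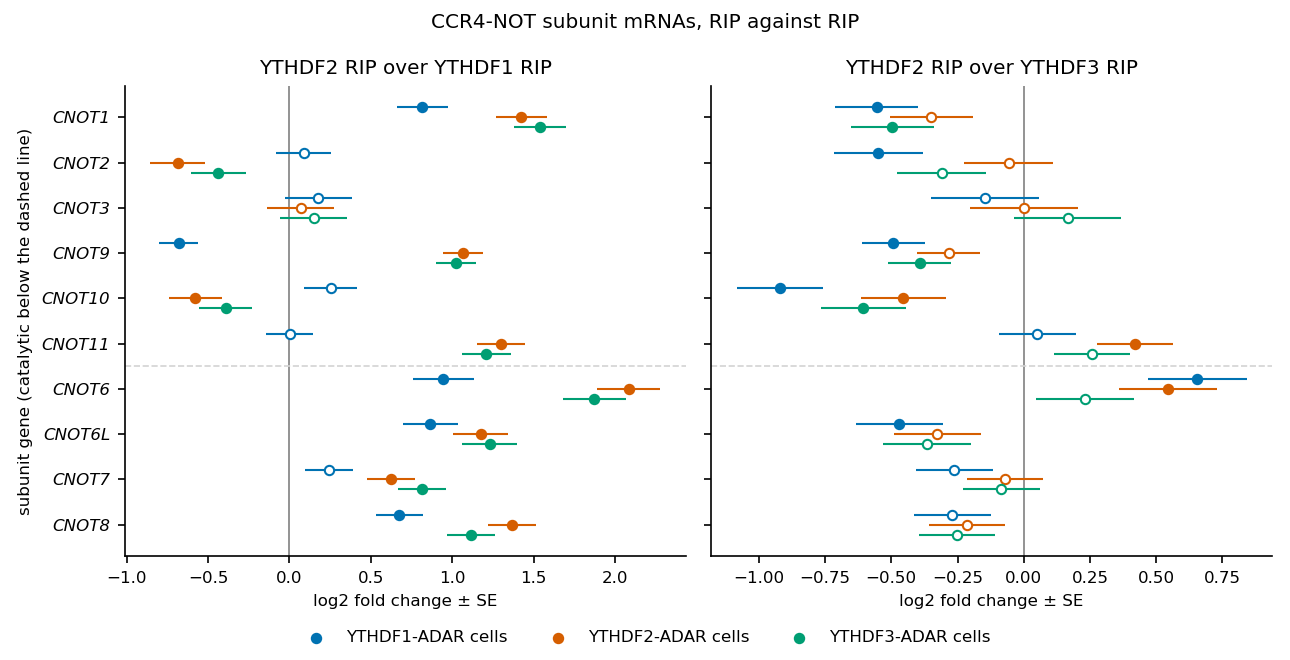
Log2 fold change of each subunit mRNA in YTHDF2 RIP over YTHDF1 RIP and over YTHDF3 RIP (x axes), with 1 point per line and bars of ± SE; filled points passed the adjusted p limit of 0.05. Over YTHDF3 RIP, CNOT10 lay at -0.92 to -0.45 and CNOT6 at 0.23 to 0.66, and over YTHDF1 RIP, CNOT6 reached 2.08.

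Against YTHDF1 RIP, YTHDF2 RIP had 4 members higher and 1 lower in YTHDF1-ADAR cells, where 18.8% of genes were higher and 20.3% lower. It had 7 higher and 2 lower in YTHDF2-ADAR cells (32.2% and 42.9% of genes), and 7 higher and 2 lower in YTHDF3-ADAR cells (31.3% and 41.5%). CNOT1, CNOT6, CNOT6L and CNOT8 were higher in all 3 lines. CNOT6 was at 0.95 ± 0.19 in YTHDF1-ADAR cells (adjusted p = 7.71e-05), and at 2.08 and 1.87 (each ± 0.19 SE; adjusted p = 2.3e-11 and 3e-10) in the lines whose YTHDF1 RIP libraries stand apart. CNOT1 was at 0.82 ± 0.16 in YTHDF1-ADAR cells (adjusted p = 5.6e-05) and at 1.42 and 1.54 in the others. In YTHDF1-ADAR cells CNOT9 was lower in YTHDF2 RIP than in YTHDF1 RIP, at -0.68 ± 0.12 (adjusted p = 1.65e-05), and higher in YTHDF2-ADAR and YTHDF3-ADAR cells, at 1.07 and 1.02 (adjusted p = 2.29e-09 and 7.01e-09). CNOT2 and CNOT10 were the members lower in YTHDF2 RIP of YTHDF2-ADAR and YTHDF3-ADAR cells, at -0.69 and -0.44 for CNOT2 and -0.58 and -0.39 for CNOT10. In YTHDF3-ADAR cells both calls held in 1 of 6 fits with a library left out (-0.47 to -0.15 for CNOT2, -0.43 to -0.12 for CNOT10).

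YTHDF1 RIP had fewer subunit mRNAs above YTHDF3 RIP than below it. In YTHDF1-ADAR cells none was higher and 6 were lower, where 22.4% of genes were higher and 18.7% lower. In YTHDF2-ADAR cells 1 was higher and 7 lower (42.4% and 30.3% of genes), and in YTHDF3-ADAR cells none was higher and 7 were lower (42.5% and 29.8%). CNOT1 was the lowest member by percentile, at -1.37, -1.77 and -2.03 (each ± 0.16 SE; adjusted p = 6.61e-09, 1.82e-11 and 1.1e-12), values that 6.52, 5.72 and 3.0% of all genes lay below. DESeq2 and an unadjusted p under 0.05 also gave 0 higher members where edgeR did. These comparisons share RIP libraries with those above and are not separate evidence.

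Whether a RIP held the same members in each line was tested directly. For YTHDF2 RIP edgeR called no member different between lines, nor any gene (0%). For YTHDF3 RIP it called no member either, with 0.00628% of genes passing; in both, 0 members had an unadjusted p under 0.05 and DESeq2 called 0. For YTHDF1 RIP 6 members differed, where 63.7% of all genes did: CNOT1, CNOT2, CNOT6, CNOT9, CNOT10 and CNOT11. The call of CNOT1 was lost with total counts (adjusted p = 0.0634) and with TMM over abundant genes (adjusted p = 0.51), and that of CNOT6 with TMM over abundant genes (adjusted p = 0.0934). The YTHDF1 RIP libraries of YTHDF2-ADAR and YTHDF3-ADAR cells are those that stand apart, so line and library type cannot be told apart.

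Genes around the complex were read from 3 lists of textbook members. Of 9 other deadenylases, which include the PAN2-PAN3 complex and PARN, YTHDF2 RIP had 1 higher and 3 lower in YTHDF1-ADAR, 1 higher and 0 lower in YTHDF2-ADAR, and 2 higher and 0 lower in YTHDF3-ADAR cells. In YTHDF2-ADAR cells the smallest p-values of the list were those of ANGEL1, at 0.50 (adjusted p = 0.00139), and of PAN3, the adaptor of the PAN2 nuclease, at 0.34 (adjusted p = 0.0553), which did not pass. YTHDF3 RIP had 2 higher and 1 lower, 2 and 1, and 3 and 1 in the same order of lines, and YTHDF1 RIP 2 and 1, 2 and 5, and 2 and 5.

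Of 9 tested partners and adaptors of CCR4-NOT, among them the antiproliferative BTG and TOB proteins that bind the CAF1-type nucleases, YTHDF2 RIP had 1 higher and 4 lower, 1 and 2, and 1 and 1 in the YTHDF1-, YTHDF2- and YTHDF3-ADAR lines. TNKS1BP1, a protein found with the complex, was the higher one in YTHDF2-ADAR cells, at 0.87 (adjusted p = 0.000132), and BTG3 was lower, at -0.65 (adjusted p = 0.00462). YTHDF3 RIP had 1 higher and 3 lower, 1 and 3, and 1 and 2. YTHDF1 RIP had 6 higher and 2 lower in YTHDF1-ADAR cells, against 0 and 5, and 0 and 6, in YTHDF2-ADAR and YTHDF3-ADAR cells.

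Of 18 genes whose proteins can recruit CCR4-NOT to mRNAs, directly or as adaptors, YTHDF2 RIP had 5 higher in every line and 2, 0 and 0 lower. TNRC6C and TNRC6B, which connect microRNA-loaded Argonaute to the complex, were at 0.61 and 0.45 in YTHDF2-ADAR cells (adjusted p = 0.00279 and 0.0104). YTHDF3 RIP had 9 higher in every line and 2, 1 and 0 lower, and YTHDF1 RIP had 10 higher and 5 lower in YTHDF1-ADAR cells, against 3 and 6, and 4 and 6. The shares of all genes called in each of these comparisons are those given above for the subunits.

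By the root mean square difference over the 9 log2 fold changes of RIP against input, the genes most like CNOT1 among 9055 with a symbol and enough counts were CTDSPL at 0.107, NUP205 at 0.120 and COPA at 0.123. Those most like CNOT7 were UBE2N at 0.129, GPAT4-AS1 at 0.131 and MRPL35 at 0.140.

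The authors' deposited table of fold changes against input, which does not name its lines, lists CNOT1 at log2 values of -0.95, 0.64 and 1.08 for YTHDF1, YTHDF2 and YTHDF3. In the authors' deposited table CNOT6 stands at -0.99, 0.89 and 0.39, and CNOT7 at -1.75, -0.86 and -0.74. The signs in the authors' deposited table are those of the fits above in every line for these 3 genes. Over all 10 members, 26, 28 and 29 of 30 signs in the authors' deposited table were those of the fits in the YTHDF1-, YTHDF2- and YTHDF3-ADAR lines. Among the exceptions, the authors' deposited table lists CNOT2 in YTHDF1 RIP at -0.31, against fits of 0.31 and 0.07 in YTHDF2-ADAR and YTHDF3-ADAR cells, and CNOT9 in YTHDF1 RIP at -0.85, against 0.16 in YTHDF1-ADAR cells. Both sets of values come from the same series, so shared signs are not separate evidence. The share of equal signs over all genes was not worked out.

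Editing in the fusion lines was read from the authors' deposited tables, which pool replicates, so it has no replicate error and its depth is unknown. Every group used here carried an induced fusion, so editing by the fusion was not told apart from other editing or from sequence variants. The level given here is the mean percent of edited reads over the sites of a gene, as worked out from the values of the authors' score, whose definition is not given in the sources used here. Where the levels of RIP and input were both above 0 and below 100%, their odds ratio equalled that in the authors' deposited tables for 94.8 to 100% of genes by line and RIP (within 1e-06), and for 33 of 33 such values of the members. In YTHDF1 RIP of YTHDF2-ADAR and YTHDF3-ADAR cells 1026 of 2214 and 1250 of 2788 genes had a level of 0 or 100% in RIP or input, so that this check covers the remaining genes. Of 7829 genes with sites in YTHDF1-ADAR cells, 8 were members, all but CNOT3 and CNOT10. YTHDF2-ADAR cells listed 2402 genes, with CNOT1 and CNOT6 among them, and YTHDF3-ADAR cells 2944, with CNOT1, CNOT2 and CNOT7.

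In YTHDF1-ADAR cells CNOT9 had 19 sites and CNOT6 had 17, the most of the members. The level of CNOT9 was 6.21% in YTHDF1 RIP, 6.04% in YTHDF2 RIP and 5.45% in YTHDF3 RIP, against 4.73% in input, and that of CNOT6 was 3.06, 2.53 and 2.73%, against 2.14%. CNOT8, with 7 sites, stood at 4.30% in YTHDF1 RIP, 3.63% in YTHDF2 RIP and 2.39% in YTHDF3 RIP, against 1.38% in input. Its YTHDF1 RIP value was the single one of the 8 members past the limit in the authors' deposited table (adjusted p = 0.0168), where 8.15% of all genes were. None of the 8 passed in YTHDF2 RIP, where 1.64% of genes did, or in YTHDF3 RIP, where 1.13% did.

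The remaining members in YTHDF1-ADAR cells had 6 sites or fewer, where the median over listed genes was 6. CNOT6L, with 6 sites, was at 1.60, 2.68 and 1.85% in YTHDF1, YTHDF2 and YTHDF3 RIP, against 0.710% in input. CNOT1, with 5 sites, was at 1.14, 1.10 and 1.55%, against 1.60% in input, and none of these passed in the authors' deposited table. In YTHDF3 RIP, in which its mRNA was most abundant, the level differed from input by only -0.0475 points. CNOT11, CNOT2 and CNOT7 had 3, 3 and 2 sites. Over all genes of this line the median level was 3.71% in YTHDF1 RIP, 3.40% in YTHDF2 RIP and 3.18% in YTHDF3 RIP, against 2.50% in input, and 82.5, 77.5 and 75.8% of genes were above their input.

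In the other lines CNOT1 had 8 sites each. In YTHDF3-ADAR cells its level was 11.9% in YTHDF1 RIP, 1.69% in YTHDF2 RIP and 1.22% in YTHDF3 RIP, against 2.22% in input. The authors' deposited table gives its YTHDF1 RIP value an adjusted p of 0.00115, where 3.08% of genes passed. It gives 1 and 0.916 for YTHDF2 and YTHDF3 RIP, where 0.105% and 1.89% of genes passed. In YTHDF2-ADAR cells the levels were 13.7, 4.08 and 5.82% in YTHDF1, YTHDF2 and YTHDF3 RIP, against 6.93% in input, with an adjusted p of 1 each in the authors' deposited table (2.89, 0.261 and 1.52% of genes passed).

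The high YTHDF1 RIP levels of CNOT1 came from the libraries that stand apart, in which its mRNA was lower than in input. The median level over all genes there ran the other way, 0.511% in YTHDF1 RIP against 0.951% in input of YTHDF2-ADAR cells, and 0.531% against 1.12% in YTHDF3-ADAR cells. Which strand and which positions the CNOT1 sites have was not used here, so any share of SETD6 in them was not tested. CNOT7 in YTHDF3-ADAR cells had a single site, at 16.7% in YTHDF1 RIP, against 2.62% in input (adjusted p = 1 in the authors' deposited table). CNOT6 in YTHDF2-ADAR and CNOT2 in YTHDF3-ADAR cells had 1 site each and are listed at 0 in input.

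**Figure D5:**
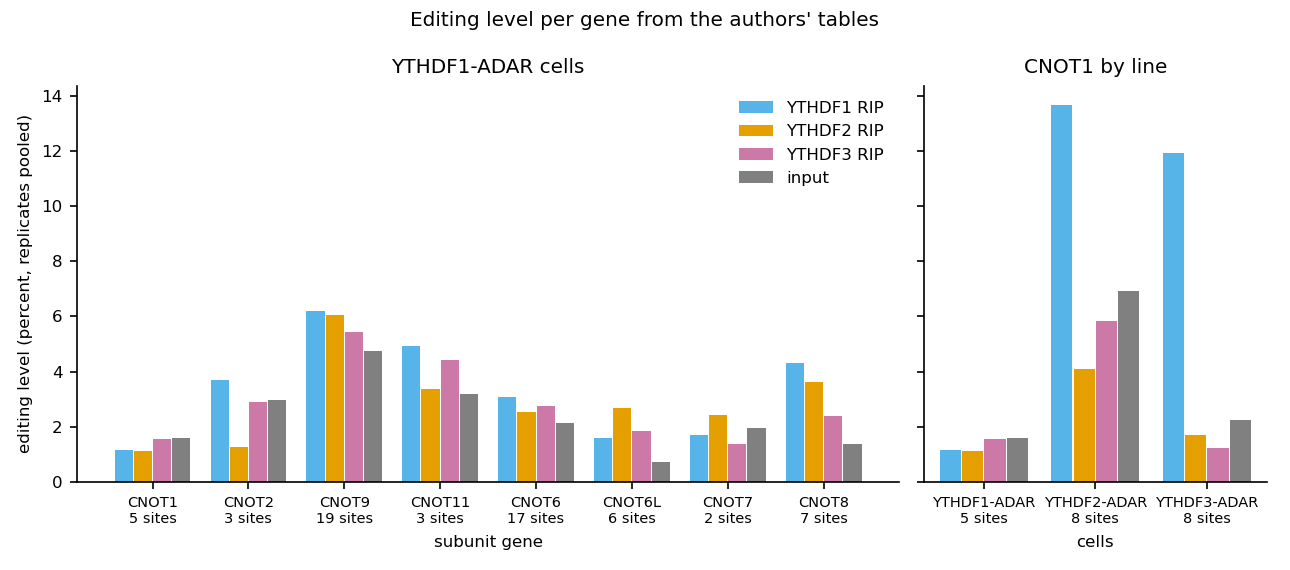
Editing level in percent (y axis) from the authors' pooled tables, for 8 subunit mRNAs in YTHDF1-ADAR cells (left) and for CNOT1 in each line (right), with bars for YTHDF1, YTHDF2 and YTHDF3 RIP and then input; there are no replicates and no error bars. CNOT8 stood at 4.30% in YTHDF1 RIP, against 1.38% in input, and CNOT1 exceeded 10% in YTHDF1 RIP of YTHDF2-ADAR and YTHDF3-ADAR cells alone.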

How the data were processed

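RNA of 36 HEK293T libraries was sequenced after DNase treatment and rRNA depletion with a directional kit, per the labels. Per the submitters' processing notes, the authors used STAR 2.7.7, featureCounts 2.0.1, DESeq2 and GRCh38; per the file headers, the deposited read counts include multi-mapping and overlapping reads and ignore strand, so overlapping or copied genes share counts. For each gene the authors' deposited comparison table holds p-values, log2 fold changes and a mean signal. Scores, p-values and natural log odds ratios make up the authors' deposited editing tables; level is 100 times score over sites.

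One model of 12 groups was fitted with edgeR 4.0.16 in R 4.3.3 (filterByExpr, TMM, quasi-likelihood, robust), with Benjamini-Hochberg adjustment over 31849 genes. The fit was also run on simulated data in which few genes changed, in a single group. That run did not test the scaling between the real libraries. CPM and RPKM use TMM library sizes. Alternatives were DESeq2 1.42.0, other scalings, no count filter, a replicate block and each library left out. The added Apobec1 row was left out (at most 0.000312% of counts), and 0 columns were unused. All 10 members were named; of each list, the 2 genes of smallest p in YTHDF2 RIP of YTHDF2-ADAR cells, and for CNOT1 and CNOT7 the 3 nearest genes with mean log2 CPM of at least 4. Members and lists were chosen with earlier results of these data known. No pair of replicate libraries agreed within counting noise. Same-numbered replicates deviated together in every pair in 4 of 21 comparisons, so the numbers were not taken to pair samples.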

Additional observations from a re-analysis of the deposited data

Results flagged for a closer look

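For 6 subunit mRNAs the effect of YTHDF1 RIP against input differed between lines by edgeR's test of the difference itself, as it did for 63.7% of all genes tested. The size is the log2 fold change in YTHDF1-ADAR cells minus the mean of the other lines. Each adjusted p belongs to the test of any difference among the lines, and not to this size. CNOT9 was at 1.46 (adjusted p = 1.04e-09), CNOT6 at 1.06 (adjusted p = 0.000535), CNOT11 at 1.03 (adjusted p = 2.79e-05) and CNOT1 at 0.67 (adjusted p = 0.00941). CNOT10 and CNOT2 had the opposite sign, at -1.06 (adjusted p = 9.44e-05) and -0.86 (adjusted p = 0.00137). The median over all genes was -0.45. With TMM over abundant genes, edgeR's calls of CNOT1 and CNOT6 were lost (adjusted p = 0.51 and 0.0934). With total counts that of CNOT1 was lost (adjusted p = 0.0634). The YTHDF1 RIP libraries of YTHDF2-ADAR and YTHDF3-ADAR cells are those that stand apart in depth and RNA classes, and line and library type cannot be told apart.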

How the results depend on the processing

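Of 240 results per gene, every call of CNOT7 against input, of CNOT1 in YTHDF3 RIP and of CNOT10 in YTHDF2 RIP held under each alternative run. Where neither fit made a call, a change of sign (209 of 3170 values) was not counted as a reversal. Reversals came with scaling. By TMM over abundant genes, YTHDF1 RIP against input put CNOT3 at 0.13 and CNOT10 at 0.53 in YTHDF2-ADAR and CNOT10 at 0.42 in YTHDF3-ADAR cells; YTHDF2 RIP against YTHDF1 RIP put CNOT3 at -0.59 and CNOT7 at -0.041 in YTHDF2-ADAR and CNOT3 at -0.49 in YTHDF3-ADAR cells; and YTHDF1 RIP against YTHDF3 RIP put CNOT3 at 0.49 in YTHDF2-ADAR and CNOT10 at 0.36 in YTHDF3-ADAR cells. Total counts put CNOT3 at 0.058 and CNOT10 at 0.45 in YTHDF1 RIP against input of YTHDF2-ADAR cells. The scalings themselves moved the median of all genes, as given above. With at least 5 sites per gene, the median editing difference over genes of YTHDF2 RIP minus input in YTHDF3-ADAR cells turned to 0.16, against -0.03 points with all genes.

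Numbers of members called that moved by more than 1.5 times are given here, and smaller moves are not listed; causes were not tested. DESeq2 gave 1 higher in YTHDF1 RIP of YTHDF1-ADAR and of YTHDF2-ADAR cells, 4 lower in YTHDF2 RIP of YTHDF2-ADAR cells, 1 higher and 3 lower for YTHDF2 RIP against YTHDF3 RIP there, and 2 lower for YTHDF1-ADAR against YTHDF2-ADAR inputs. TMM over abundant genes gave 1, 2 and 2 higher in YTHDF1 RIP by line, 0 higher and 3 lower for YTHDF2 RIP against YTHDF3 RIP in YTHDF2-ADAR cells, 3 higher for YTHDF1 RIP against YTHDF3 RIP in both YTHDF2- and YTHDF3-ADAR lines, and 0 lower between the inputs. Total counts gave 1, 2 and 1 higher in YTHDF1 RIP, 3 lower in YTHDF2 RIP of YTHDF1-ADAR cells, 5 and 4 higher in YTHDF3 RIP of YTHDF2-ADAR and YTHDF3-ADAR cells, 1 lower in YTHDF3 RIP of each line, 1 higher and 3 lower for YTHDF2 RIP against YTHDF3 RIP and 2 higher for YTHDF1 RIP against YTHDF3 RIP in YTHDF2-ADAR cells, and 0 lower between the inputs. No count filter gave 2 lower and 1 higher in YTHDF2 RIP of YTHDF1-ADAR and YTHDF2-ADAR cells, 1 lower in YTHDF3 RIP of YTHDF1-ADAR and YTHDF3-ADAR cells, 0 lower for YTHDF2 RIP against YTHDF1 RIP in YTHDF3-ADAR cells, 2, 0 and 1 lower and, in YTHDF2-ADAR cells, 1 higher for YTHDF2 RIP against YTHDF3 RIP, and 0 lower between the inputs. The fit without the 6 libraries apart, chosen after seeing the data, gave 1 higher in YTHDF2 RIP of YTHDF2-ADAR cells, 1 lower in YTHDF3 RIP of YTHDF1-ADAR cells, 0 higher for YTHDF2 RIP against YTHDF3 RIP in YTHDF1-ADAR cells and 0 in either direction in YTHDF2-ADAR cells, and 2 lower between the inputs.

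With each library left out in turn, members higher ran from 1 to 2, 1 to 2 and 0 to 2 in YTHDF2 RIP by line, from 1 to 2 and 1 to 3 in YTHDF3 RIP of YTHDF1-ADAR and YTHDF2-ADAR cells, and from 0 to 1 in both for YTHDF2 RIP against YTHDF3 RIP. Members lower ran from 2 to 6 in YTHDF2 RIP of YTHDF1-ADAR cells, 1 to 2 in YTHDF3 RIP of YTHDF1-ADAR and YTHDF3-ADAR cells, 3 to 5, 0 to 4 and 1 to 3 for YTHDF2 RIP against YTHDF3 RIP by line, 1 to 2 and 0 to 1 for YTHDF2 RIP against YTHDF1 RIP of YTHDF2-ADAR and YTHDF3-ADAR cells, and 0 to 2 and 0 to 1 for YTHDF1-ADAR against YTHDF2-ADAR and YTHDF3-ADAR inputs. In line differences of YTHDF1 RIP, CNOT1 was lost without YTHDF1-ADAR input replicate 1 (0.55 to 1.12 over 18 fits), and CNOT2 held in 10 of 18 fits (-0.91 to -0.42).

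Replicate numbers were not shown to pair samples: correlations of same-numbered deviations ran from -0.66 to 0.75. With the replicate block, members higher in YTHDF3 RIP of YTHDF3-ADAR cells numbered 3 in place of 2, and no other count changed. The block gave each replicate number the same effect in all lines. A pairing of RIP and input within a line was therefore not tested by it.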
